A study of Mus musculus with 12 samples.

Results

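Expression of 5 genes of sodium channels and the sodium pump, Scn4a, Scn4b, Fgf13, Atp1b1 and Fxyd1, was examined in the left ventricle of mice with and without Gch1 in their cardiomyocytes. Gch1 encodes GTP cyclohydrolase I, the enzyme that starts the synthesis of tetrahydrobiopterin. The genes were found in the deposited table of read counts by the Ensembl identifiers that carry these symbols in GENCODE M21, and all 5 were among the 26921 genes of the table and among the 11225 genes with enough counts to be tested. WT mice (n = 6) were Gch1 flox/flox, and cmGch1 KO mice (n = 6) were Gch1 flox/flox and carried 1 heterozygous Cre transgene under the α-MHC promoter. All were littermates of 16 weeks of age. The floxed alleles were thus shared by both genotypes, and since WT mice had no Cre, effects of Cre and of the deletion cannot be told apart in these libraries. The α-MHC promoter is active in cardiomyocytes, so the other cells of the ventricle kept their Gch1. The question was whether genes that let sodium into the cardiomyocyte, or pump it out, differed between the genotypes. The labels named the tissue as heart, and the cardiomyocyte markers Myh6, Tnnt2, Tnni3, Actc1, Ryr2, Pln and Mb were present in every library.

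Sodium channels of the voltage-gated family open when the membrane is depolarised and carry the inward current that starts the cardiac action potential. The subunit that forms the pore is bound by small β subunits with 1 membrane span and by cytoplasmic partners that tune how the channel opens and inactivates. The sodium that enters is removed by the Na+/K+ pump, which consists of a catalytic α subunit, a β subunit needed for its assembly and delivery to the membrane, and a small FXYD protein that sets its affinity for sodium. The sodium gradient in turn drives the sodium-calcium exchanger (Slc8a1) and the sodium-hydrogen exchangers. Of the genes studied, Scn4a encodes a pore subunit best known from skeletal muscle, Scn4b a β subunit, Fgf13 an intracellular fibroblast growth factor homologue that binds the tail of the channel, Atp1b1 the main β subunit of the cardiac pump, and Fxyd1 phospholemman, which inhibits the pump until it is phosphorylated.

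Libraries held 22356463 to 37917806 counts in WT and 19921398 to 35480715 counts in cmGch1 KO. Levels are given in cpm, the counts of a gene scaled to the size of its library with the TMM factors of edgeR. The deleted gene Gch1 had a mean of 10.7 ± 0.979 cpm for WT and 5.51 ± 0.859 cpm for cmGch1 KO (SD, n = 6 each), and its adjusted p was 6.88e-04 by the quasi-likelihood test of edgeR. The libraries of cmGch1 KO replicates 2 and 3 stood apart. They had 87.1 and 99.6 cpm of Xist, the RNA of the inactive X chromosome, and 0 counts of Ddx3y, Kdm5d, Uty and Eif2s3y, which lie on the Y chromosome, where a count of 0 allows up to 0.151 and 0.138 cpm. By contrast, the other 10 libraries had at most 0.235 cpm of Xist and a sum of 168 to 193 cpm of these 4 genes. Mitochondrial genes took 14.9% and 16.1% of their counts, against 18.3% to 22.9% in the others. No WT library resembled them in these values. By Xist and the Y-linked genes these 2 libraries read as female, and the other 10, with every WT library, as male. The labels give no sex. Sex was thus not balanced between the genotypes, and its effect cannot be fully told apart from that of genotype. The log2 fold changes of the members are therefore also given without cmGch1 KO replicates 2 and 3.

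The members lie on 5 chromosomes of the mouse build GRCm38. Scn4a (ENSMUSG00000001027) spans chr11:106318592-106353288 on the minus strand, and Scn4b (ENSMUSG00000046480) spans chr9:45138395-45154152 on the plus strand. Fgf13 (ENSMUSG00000031137) spans chrX:59062145-59568071 on the minus strand. Atp1b1 (ENSMUSG00000026576) spans chr1:164437109-164458355 and Fxyd1 (ENSMUSG00000036570) chr7:31051678-31057199, both on the minus strand. Counts covered whole genes, that is, all annotated exons, so isoforms were not separated. The exons of Atp1b1 overlapped those of Nme7, on the opposite strand, over 575 bases. The libraries were stranded, but the strand setting of the counting is not given in the sources used here, so that some counts of Atp1b1 may belong to Nme7. The exons of Scn4a, Scn4b, Fgf13 and Fxyd1 overlapped no other annotated exon.

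None of the 5 genes passed the threshold between the genotypes (0 of 5 at an FDR under 0.05, by the quasi-likelihood test of edgeR with p-values adjusted by the Benjamini-Hochberg method over all tested genes), against 1.12% of all 11225 tested genes. At an unadjusted p under 0.05, 1 of 5 was higher in cmGch1 KO, Atp1b1, against 7.01% of tested genes that were higher by this rule. None was lower, against 4.51% of tested genes. The libraries of the genotypes overlapped for all 5, whereas they were separate for 1.87% of tested genes. The fitted log2 fold change was negative for 4 members and positive for 1, with a median of -0.04, beside a median of -0.01 over all tested genes. These measurements were made in bulk tissue, in which fewer cells of a type and less RNA per cell cannot be told apart.

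**Figure D1:**
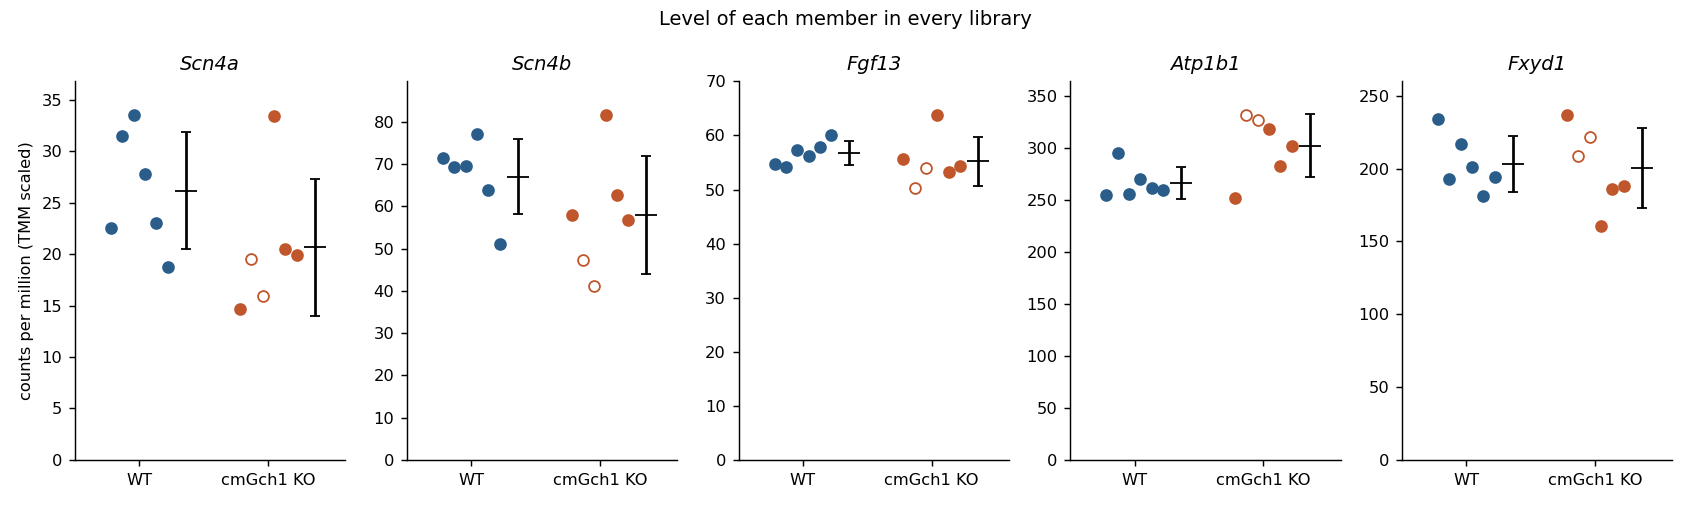
Level in cpm (vertical axis, from 0) of each member in every library of WT and cmGch1 KO. Points are libraries, open points are cmGch1 KO replicates 2 and 3, and bars give the mean ± SD of 6 libraries. In each panel the genotypes overlap, with cmGch1 KO replicate 4 as the top library for Scn4b (81.5 cpm) and Fgf13 (63.7 cpm) and the bottom one for Fxyd1 (161 cpm).

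Of the 5 members, the channel gene Scn4a had the log2 fold change farthest from 0. It ranged from 18.8 to 33.5 cpm in WT, with a median of 25.4 cpm, and from 14.7 to 33.4 cpm in cmGch1 KO, with a median of 19.7 cpm. In cmGch1 KO, replicates 1 and 3 (14.7 and 15.9 cpm) were below every WT library, while replicate 4 (33.4 cpm) stood level with the highest WT library, and the next highest cmGch1 KO library was at 20.5 cpm. The means were 26.2 ± 5.69 cpm for WT and 20.7 ± 6.67 cpm for cmGch1 KO (SD, n = 6 each). Its log2 fold change was -0.34 (standard error 0.19, 95% interval -0.75 to 0.07), with an adjusted p of 0.552 by the edgeR test. An exact permutation test of the means over all regroupings of the 12 libraries, two-sided, gave p = 0.145. The difference was thus within the spread between libraries, with an interval that reached from a fall of 0.75 to a rise of 0.07 on the log2 scale. Without cmGch1 KO replicate 4 the log2 fold change was -0.53 (adjusted p = 0.154 by edgeR), and without cmGch1 KO replicates 2 and 3 it was -0.24 (adjusted p = 0.970 by edgeR). Each library held at least 357 counts of Scn4a.

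Since Scn4a is known from skeletal muscle, markers of that tissue were inspected beside it. None of the 8 genes Myh1, Myh2, Myh4, Tnnt3, Tnni2, Mylpf, Actn3 and Myod1 had enough counts to be tested, and 1 of them, Myh4, had 0 counts in every library. Their summed level was 2.06 to 3.57 cpm in WT and 2.86 to 5.77 cpm in cmGch1 KO. The ranges overlapped, and that of cmGch1 KO reached higher. This sum rests on genes with few counts, and the list does not hold all genes of that tissue. The part of skeletal muscle in the values of Scn4a was not tested.

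Scn4b, the β subunit, ranged from 51.1 to 77.2 cpm in WT, with a median of 69.4 cpm. In cmGch1 KO it ranged from 41.1 to 81.5 cpm, with a median of 57.4 cpm. Replicates 2 and 3 of cmGch1 KO were the lowest of the 12 libraries (47.3 and 41.1 cpm), and replicate 4 was the highest. The means were 67.0 ± 8.90 cpm for WT and 57.9 ± 14.0 cpm for cmGch1 KO (SD, n = 6 each). The log2 fold change of -0.21 (standard error 0.14, 95% interval -0.52 to 0.10) did not pass the test (adjusted p = 0.667, the edgeR test). The exact permutation test, two-sided, gave p = 0.199. Without replicates 2 and 3, which had high Xist, the log2 fold change was -0.05 (adjusted p = 0.998 by edgeR). The other 4 cmGch1 KO libraries averaged 64.7 ± 11.5 cpm (SD, n = 4), near the WT mean.

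Fgf13 had the smallest spread of the members in WT, relative to its mean. It ranged from 54.1 to 60.0 cpm in WT, with a median of 56.8 cpm, and from 50.3 to 63.7 cpm in cmGch1 KO, with a median of 54.2 cpm. In cmGch1 KO, 3 libraries were below every WT library and 1, replicate 4, was above all. For Fgf13 the log2 fold change was -0.04 (standard error 0.06, 95% interval -0.18 to 0.10), with an adjusted p of 0.907 by the edgeR test. The exact permutation test, two-sided, gave p = 0.481. Without cmGch1 KO replicates 2 and 3 the log2 fold change was 0.0035. For this gene a change beyond 0.18 in either direction on the log2 scale lay outside the interval.

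For the pump, Atp1b1 was the only member with a positive log2 fold change. In WT it ranged from 254.8 to 295.3 cpm with a median of 260.3 cpm, and in cmGch1 KO from 251.9 to 331.3 cpm with a median of 310.3 cpm. Of the 6 cmGch1 KO libraries, 4 were above every WT library, replicates 2 and 3 being the highest at 331.3 and 326.5 cpm, while replicate 1 was the lowest of all 12. The means were 266 ± 15.3 cpm for WT and 302 ± 30.5 cpm for cmGch1 KO (SD, n = 6 each). Its log2 fold change was 0.18 (standard error 0.07, 95% interval 0.02 to 0.34), and the adjusted p was 0.334 by the edgeR test. The exact permutation test, two-sided and unadjusted, gave p = 0.0346. Without replicates 2 and 3 of cmGch1 KO the log2 fold change was 0.12 (adjusted p = 0.898 by edgeR), and the exact permutation test over 210 regroupings gave p = 0.148.

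Fxyd1 had 203 ± 19.1 cpm for WT and 200 ± 27.4 cpm for cmGch1 KO (SD, n = 6 each). It ranged from 181 to 234 cpm in WT, with a median of 197 cpm, and from 161 to 236 cpm in cmGch1 KO, with a median of 199 cpm. Replicate 1 of cmGch1 KO was the highest of the 12 libraries and replicate 4 the lowest. A log2 fold change of -0.02 was fitted for it (standard error 0.09, 95% interval -0.22 to 0.18), with an adjusted p of 0.972 by the edgeR test. The exact permutation test, two-sided, gave p = 0.840. The sign of a value this close to 0 turned when counts were scaled by library size alone (0.05), as did that of Fgf13 (0.04), and the sign of Fxyd1 also turned without cmGch1 KO replicate 4 (0.03) or WT replicate 1 (0.02). Without cmGch1 KO replicates 2 and 3 the log2 fold change of Fxyd1 was -0.07.

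Channel and pump subunits act in complexes, so members of the same complex were next set against each other within a library. Such a ratio does not depend on how libraries are scaled, and the pairs were chosen after the values of their genes had been seen. Scn4a, the pore subunit, had a median of 36.4 counts per 100 counts of the β subunit Scn4b in WT, between 31.6 and 48.2, and a median of 36.9 in cmGch1 KO, between 25.3 and 41.3. Replicate 1 of cmGch1 KO, at 25.3, was below every WT library, and the other 5 lay within the WT range. The mean log2 ratio was -1.37 ± 0.23 for WT and -1.51 ± 0.27 for cmGch1 KO (SD, n = 6 each), a difference of -0.13 with p = 0.390 by an exact permutation test, two-sided (0.390 after adjustment over the 3 ratios by the Benjamini-Hochberg method). Without cmGch1 KO replicates 2 and 3 the difference was -0.23 (exact permutation test, p = 0.210), and without cmGch1 KO replicate 1 it was -0.04.

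Fgf13, the channel partner, had 72.9 to 117 counts per 100 counts of Scn4b in WT and 78.1 to 131 in cmGch1 KO, with medians of 80.4 and 95.8. The highest values of cmGch1 KO, 106 and 131, were those of replicates 2 and 3, in which Scn4b was lowest. The log2 difference was 0.19 (exact permutation test, two-sided, p = 0.227, adjusted p = 0.341), and without these libraries it was 0.05. For the pump, Fxyd1 had 65.3 to 91.9 counts per 100 counts of Atp1b1 in WT and 50.4 to 93.9 in cmGch1 KO, with medians of 74.6 and 64.5. In cmGch1 KO, 3 libraries were below every WT library, while replicate 1, which had the highest Fxyd1 and the lowest Atp1b1 of all 12, was above every WT library. The log2 difference of -0.21 did not pass (exact permutation test, two-sided, p = 0.169, adjusted p = 0.341). Without cmGch1 KO replicate 1 it was -0.31, with p = 0.0130 by the exact permutation test and 0.0390 after adjustment, so that this library decided the call.

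**Figure D2:**
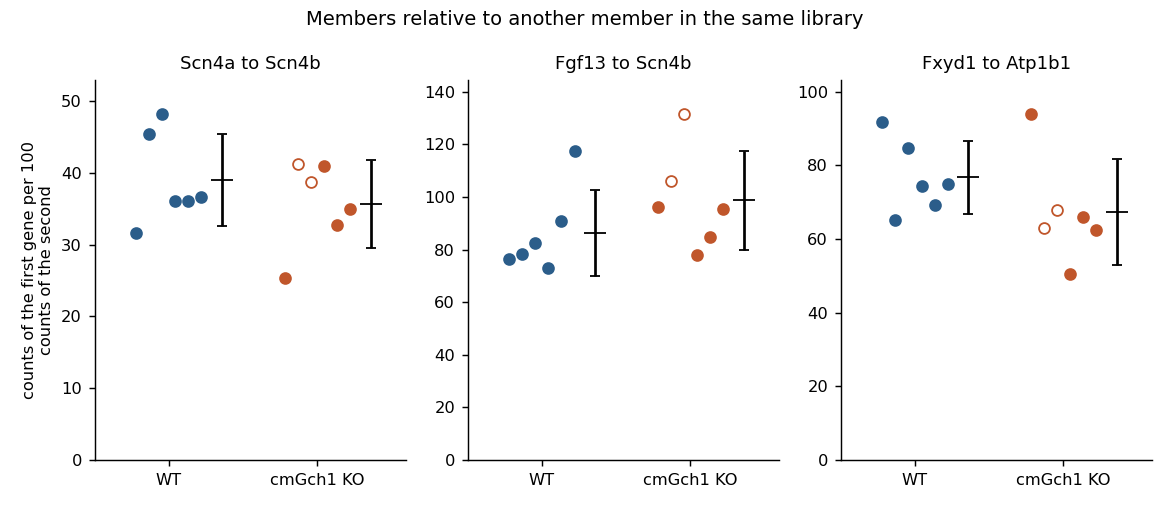
Counts of 1 member per 100 counts of another (vertical axes, from 0) for Scn4a to Scn4b, Fgf13 to Scn4b and Fxyd1 to Atp1b1, by genotype. Points are libraries, open points are cmGch1 KO replicates 2 and 3, and bars give the mean ± SD of 6 libraries. The genotypes overlap in all 3 panels, and for Fxyd1 to Atp1b1 the top point, 93.9, is cmGch1 KO replicate 1.

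To compare levels between genes, counts were divided by the summed exon length of each gene, which gives RPKM, that is, cpm per kilobase of exon. This length takes in all annotated exons, whether or not the heart uses them, so the order depends on the annotation. It was 18.8 kb for Slc8a1, against 4.02 kb for Fgf13 and 4.98 kb for Scn4b. The order was set up for 11 genes, the members and 6 others of their families and the exchangers, and leaves out the other tested genes of sodium transport. On this scale the pump members stood above the channel members in WT. Fxyd1 (93.0 ± 8.75, SD, n = 6) and Atp1b1 (86.4 ± 4.97) led, and their libraries overlapped. The β subunit Atp1b3, at 19.7 ± 0.927, was separate from its neighbours among the 11. Fgf13 (14.1 ± 0.543) and Scn4b (13.5 ± 1.79) came next among them and did not differ beyond their spread. Scn4a was at 3.72 ± 0.808, with libraries that overlapped those of the pump subunit Atp1b2 (4.44 ± 0.938) and lay above those of Fxyd5 (2.39 ± 0.183).

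The order of the 11 genes in cmGch1 KO was nearly that of WT. Atp1b1 (98.1 ± 9.89, SD, n = 6) stood above Fxyd1 (91.6 ± 12.5), again with overlapping libraries, and Fxyd5 (2.99 ± 0.905) stood next to Scn4a (2.93 ± 0.947). Fgf13 was at 13.7 ± 1.13 and Scn4b at 11.6 ± 2.80. The levels of the sodium-calcium exchanger Slc8a1 (9.59 ± 0.556 in WT libraries and 10.6 ± 1.95 in cmGch1 KO libraries) were next below those of Scn4b among the 11 genes in both genotypes, and their libraries overlapped.

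**Figure D3:**
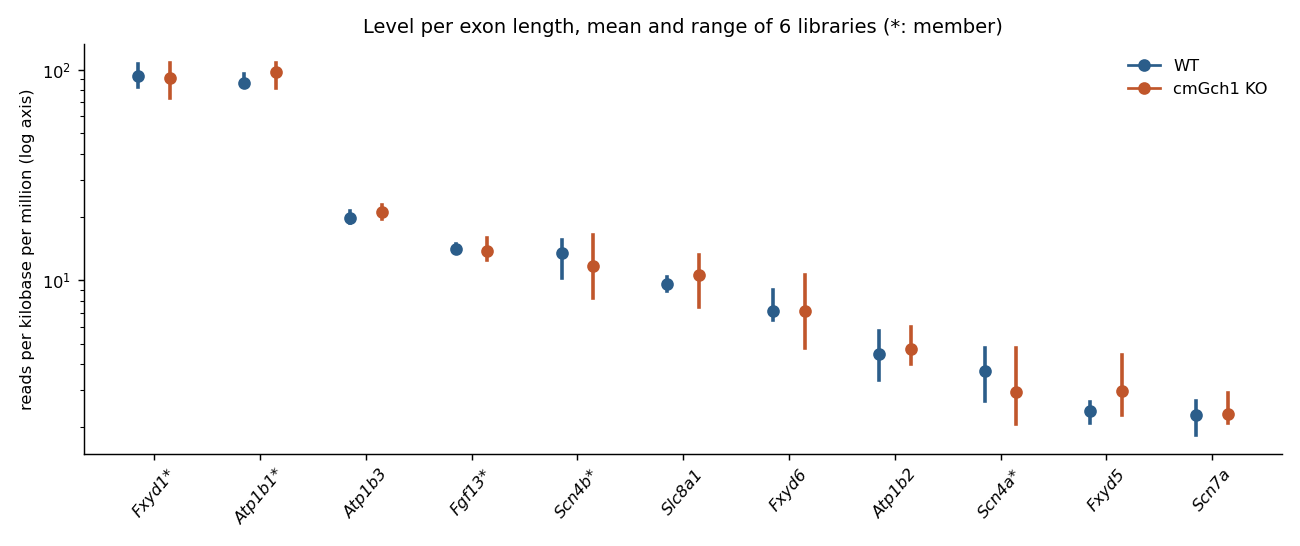
RPKM, or cpm per kilobase of exon (vertical axis, log scale) of 11 genes of sodium channels, the pump and exchangers, chosen from the tested genes and in the order of their WT means. Points are means and lines the range of 6 libraries in WT and cmGch1 KO, and asterisks mark the 5 members. Fxyd1 and Atp1b1 lie above the other genes shown, and Scn4a lies near the lower end in both genotypes.

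The members were then placed among other genes of sodium transport. Of the 60 genes compared, in 10 families, 26 had enough counts to be tested. None of the 26 passed the threshold that 1.12% of all tested genes passed (0 of 26 by the edgeR test and 0 by the Wald test of DESeq2). At an unadjusted p under 0.05 by edgeR, 2 of the 26 were higher (Tpcn1 and Atp1b1), against 7.01% of all tested genes, and 1 was lower (Trpm4), against 4.51%. No exchanger is among the members, and the exchanger genes are given here for context. The log2 fold change was negative for 9 and positive for 17 of the 26, with a median of 0.04, beside -0.01 over all tested genes. With scaling by library size alone the median of the 26 was 0.11 and that of all tested genes 0.07. Without cmGch1 KO replicates 2 and 3 the median of the 26 was 0.06.

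Among the pore subunits compared, Scn7a (log2 fold change 0.02, 95% interval -0.21 to 0.25) was the one with enough counts beside Scn4a. Among the channel partners other than Fgf13, the log2 fold changes of Fgf11, Gpd1l, Ank3 and Nedd4l lay between 0.02 and 0.28, and none passed. That of Fgf11, a further intracellular fibroblast growth factor homologue, was the farthest from 0, at a mean of 4.44 cpm for WT and 5.34 cpm for cmGch1 KO. Of the 9 pore subunits and 3 β subunits compared, 9 were too low to be tested.

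The pump β subunits Atp1b2 (0.08, 95% interval -0.21 to 0.38) and Atp1b3 (0.10, 95% interval -0.03 to 0.23) had positive log2 fold changes like Atp1b1, without passing the test. Of the other FXYD genes, Fxyd5 had a log2 fold change of 0.32 (95% interval -0.03 to 0.66) and Fxyd6 of 0.01 (95% interval -0.32 to 0.34), and neither passed.

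Of the exchangers, Slc8a1 had a log2 fold change of 0.15 (95% interval -0.09 to 0.38), which did not pass the test. Its value was 0.02 without cmGch1 KO replicates 2 and 3, 0.07 without replicate 2 alone and 0.23 without cmGch1 KO replicate 1 (adjusted p = 0.155 by edgeR). None of the 2 sodium-calcium and 4 sodium-hydrogen exchanger genes tested passed, and their log2 fold changes lay between -0.10 and 0.15. Tpcn1, which encodes a channel of endosomes and lysosomes, had 47.2 ± 2.07 cpm for WT and 53.9 ± 4.19 cpm for cmGch1 KO (SD, n = 6 each) (log2 fold change 0.19, adjusted p = 0.223 by edgeR). Trpm4, a calcium-activated channel for monovalent cations, had 23.5 ± 1.96 cpm (SD, n = 6) and 20.7 ± 1.81 cpm (SD, n = 6), with all 6 cmGch1 KO libraries below the WT mean (log2 fold change -0.19, adjusted p = 0.376 by edgeR). With scaling by library size alone the log2 fold change of Trpm4 was -0.11 (unadjusted p = 0.240 by edgeR), and that of Tpcn1 was 0.27.

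**Figure D4:**
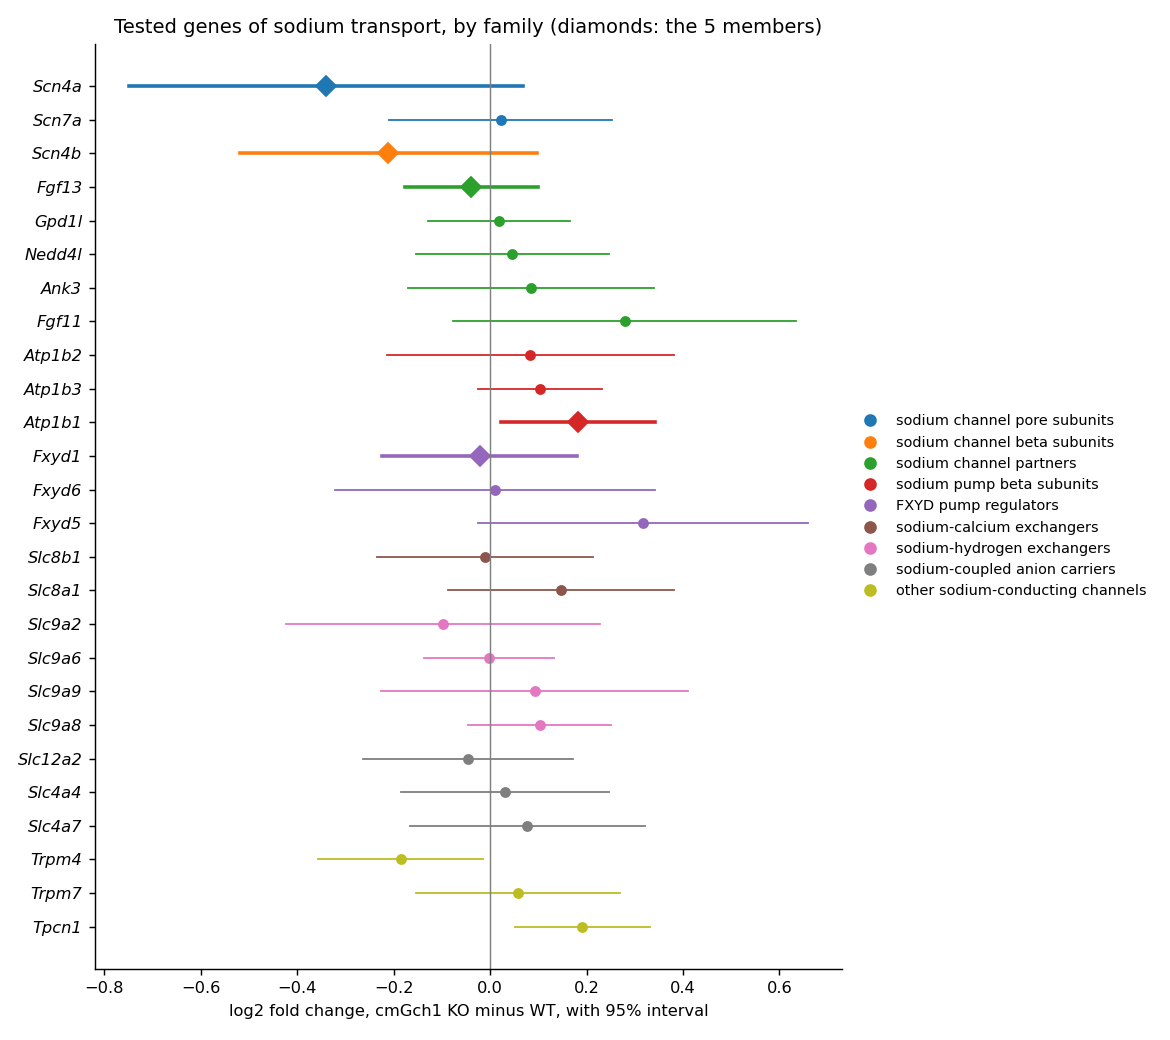
Change from WT to cmGch1 KO on the log2 scale (horizontal axis) with its 95% interval for the 26 tested genes of sodium transport, coloured by family. Diamonds mark the 5 members. The intervals of Scn4a, Scn4b, Fgf13 and Fxyd1 include 0, that of Atp1b1 lies between 0.02 and 0.34, and those of Tpcn1 (0.05 to 0.33) and Trpm4 (-0.36 to -0.01) also leave out 0.

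The members also varied among libraries of 1 genotype, and this variation was partly shared by Scn4a and Scn4b. Over the 12 libraries the log2 cpm of Scn4a and Scn4b had a Pearson r of 0.79 and a Spearman rho of 0.83. The other pairs of members had r between -0.50 (Fgf13 and Fxyd1) and 0.48 (Scn4b and Fgf13), most of them negative. For Scn4a and Scn4b further values are given. Within genotypes r was 0.69 in the 6 WT libraries and 0.77 in the 6 cmGch1 KO libraries, and without cmGch1 KO replicates 2 and 3 it was 0.79. Without the 2 libraries farthest from the median of Scn4a it was 0.74. After subtraction of each genotype's mean r was 0.74, which placed Scn4b at rank 94 among the tested genes by likeness to Scn4a. These values describe 12 libraries whose depth and composition all genes of a library share.

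Scn4a and Fxyd1 went in opposite directions within cmGch1 KO (r = -0.95, 6 libraries) and had little relation in WT (r = 0.14, 6 libraries). The ends of the relation within cmGch1 KO were replicate 1, with the lowest Scn4a (14.7 cpm) and the highest Fxyd1 (236 cpm), and replicate 4. The latter had the highest Scn4a of its genotype (33.4 cpm) and the lowest Fxyd1 (161 cpm). Whether the r values of the genotypes differ was not tested. Fgf13 and Scn4b had r = 0.77 in cmGch1 KO and r = -0.76 in WT, with 6 libraries each, and the values of WT spanned a narrow range of Fgf13.

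**Figure D5:**
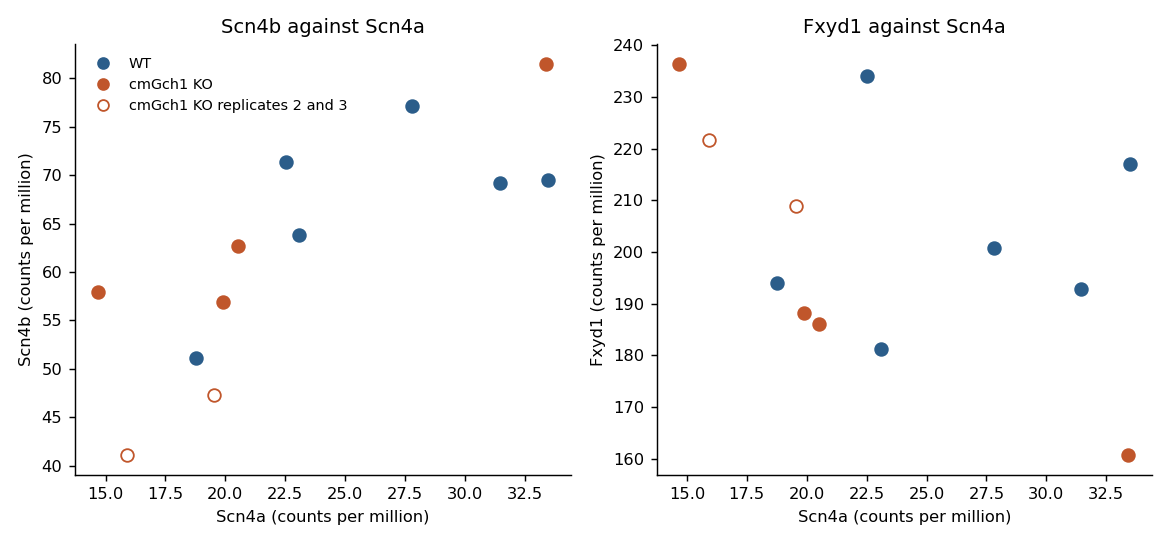
Scn4b against Scn4a (left) and Fxyd1 against Scn4a (right), both axes in cpm, 1 point per library. WT and cmGch1 KO are coloured, and open points are cmGch1 KO replicates 2 and 3. Scn4b rises with Scn4a over both genotypes (r = 0.79 on log2 cpm), whereas Fxyd1 falls with Scn4a among the cmGch1 KO libraries (r = -0.95).

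For each member, the 3 tested genes with the most similar profile over the 12 libraries were found by Pearson r of log2 cpm after subtraction of each genotype's mean. They were Acad11, Tshz2 and Trim54 for Scn4a (r from 0.89 to 0.94), and 4833420G17Rik, Cep89 and Pex11a for Scn4b (r from 0.90 to 0.93). For Fgf13 they were Tmem19, Ubxn2b and Cir1 (r from 0.87 to 0.89), for Atp1b1 they were Vwf, P2ry2 and Tfip11 (r from 0.92 to 0.93), and for Fxyd1 they were Dad1, 1110008P14Rik and Imp3 (r from 0.93 to 0.94). No member was among the 3 genes of another. None of these 15 genes passed the test between the genotypes, which 1.12% of all tested genes passed. Their log2 fold changes lay between -0.34 for Pex11a and 0.26 for 1110008P14Rik.

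Markers of cell types were examined in the same libraries. The summed level of the 7 cardiomyocyte markers was between 64030 and 67060 cpm in WT. In cmGch1 KO it was between 57500 and 61700 cpm, so the ranges did not overlap with TMM scaling. Taken singly, the genotypes overlapped for each of the 7 (0 separate, against 1.87% of all tested genes). The sums weigh the most abundant genes most and rest on TMM scaling. The TMM factor was 0.972 for WT replicate 5 (sum 64518 cpm) and 1.02 for cmGch1 KO replicate 6 (sum 61695 cpm). Scaled by library size alone, the sum of cmGch1 KO replicate 6 was above that of WT replicate 5, so the ranges then overlapped. A negative log2 fold change was fitted for 6 of 7, although none passed the test (0 of 7, against 1.12% of all tested genes). Their part in the values of Scn4a and Scn4b was not tested. Of the 5 macrophage markers, 4 were higher at an unadjusted p under 0.05, against 7.01% of all tested genes, and none passed the adjusted threshold, with sums of 77.4 to 95.4 cpm in WT and 92.9 to 107 cpm in cmGch1 KO. Of the 6 smooth muscle and pericyte markers, Acta2 was higher in cmGch1 KO (log2 fold change 0.66, adjusted p = 0.00672 by edgeR) and the other 5 had negative log2 fold changes. No marker of endothelium (0 of 5), fibroblasts (0 of 5), the conduction system (0 of 5 tested), atrial myocytes (0 of 4 tested), nerve and glia (0 of 2 tested) or adipocytes (0 of 1 tested) passed. In these lists, 3 markers had an unadjusted p under 0.05 by the edgeR test, namely Uchl1 of nerve (log2 fold change 0.59) and Cidea of adipocytes (0.24), both higher in cmGch1 KO, and Hcn4 of the conduction system (-0.32), which was lower. By this rule 7.01% of all tested genes were higher and 4.51% lower. The atrial markers summed to between 31.8 and 349.8 cpm in WT and between 82.4 and 225 cpm in cmGch1 KO. The part of these cell types in the values of the members was not tested.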

How the data were processed

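RNA-seq was examined for 6 WT and 6 cmGch1 KO left ventricles, grouped by the genotype in the labels, which name no sequencing batch. Per the study's methods and the labels, the authors made stranded paired-end libraries and used HISAT2, SAMtools, Picard and featureCounts, with the build GRCm38. The authors deposited raw counts per gene, which were whole numbers, and a table of normalized values on a log2-like scale, whose tool is not given in the sources used here and which served as an alternative. Symbols, positions and exon lengths came from GENCODE M21, in which 26545 of 26921 identifiers (98.6%) had a symbol.

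The genes that had over 3 cpm in 6 or more libraries were tested with edgeR 4.0.16 in R 4.3.3 (TMM, quasi-likelihood test on genotype, Benjamini-Hochberg adjustment over all 11225 genes, FDR under 0.05). edgeR, the cpm minimum and the FDR are those of the study's methods, while the choice of test and the number of libraries were made here. Intervals are 95% intervals of the fit. Single values were compared by exact permutation tests, two-sided, over all regroupings of the libraries (smallest p 0.00216). Log2 cpm for correlations used a prior count of 2. Scripts were tested on simulated data. A count of 0 allows up to 3 counts, or 0.0791 to 0.151 cpm, which covers counting error only. Each library was taken as 1 animal, since the study defines its unit so. Chi-square per degree of freedom between libraries of 1 genotype was at least 12.5 over 30 pairs, so no library was a copy of another.

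The members, the gene lists and the genes named were chosen with earlier results of these data known. Named were the members, Gch1, Slc8a1, listed sodium transport genes at an FDR or unadjusted p under 0.05, the 3 genes nearest each member, and markers; other listed genes are given by their log2 fold change, some with an interval or a level. Some genes of sodium transport, and the planned ratios of members to them, are not reported here, and list counts and medians leave these genes out. Alternatives were DESeq2 1.42.0 (size factors and Wald test), library size alone, other filters, the replicate number as a block, a sex-linked covariate, limma 3.58.1 on the deposited log2 values, and libraries left out. The ratios between members, and the alternatives for genes other than the members, were added after seeing the data. No sequences were printed.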

Additional observations from a re-analysis of the deposited data

Results flagged for a closer look

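In 2 of 24 groups of 6 libraries examined, 1 library lay far from the others by Dixon's criterion, which chance alone meets in about 1 in 20 groups. Scn4a was at 33.4 cpm in cmGch1 KO replicate 4, where the other 5 cmGch1 KO libraries lay between 14.7 and 20.5 cpm. Without that library the log2 fold change of Scn4a was -0.53 (adjusted p = 0.154 by edgeR, quasi-likelihood test). Atp1b1 was at 295.3 cpm in WT replicate 2, where the other 5 WT libraries lay between 254.8 and 269.95 cpm. Leaving out WT replicate 2 gave Atp1b1 a log2 fold change of 0.22 (adjusted p = 0.265 by edgeR, quasi-likelihood test).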

How the results depend on the processing

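Over 21 alternatives for each of the 5 members, none brought an FDR under 0.05. The log2 fold change stayed negative for Scn4a (from -0.53 to -0.24) and Scn4b (from -0.33 to -0.05), and positive for Atp1b1 (from 0.12 to 0.26, adjusted p from 0.0857 to 0.898). It changed sign for Fgf13 with library size alone (0.036), the sex-linked covariate (0.0015) and without cmGch1 KO replicates 2 and 3 (0.0035), and for Fxyd1 with library size alone (0.055), without WT replicate 1 (0.02) and without cmGch1 KO replicate 4 (0.034), its range without 1 library being -0.075 to 0.034. The cause was not tested.

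Leaving out 1 library, the log2 ratios of Scn4a to Scn4b (-0.19 to -0.04), Fgf13 to Scn4b (0.10 to 0.28) and Fxyd1 to Atp1b1 (-0.31 to -0.13) kept their signs, and 1 passed 0.05 after adjustment, that of Fxyd1 to Atp1b1 without cmGch1 KO replicate 1. As raw ratios in percent, none changed sign or passed.

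Over all genes, 50 were lower and 76 higher. With the DESeq2 Wald test there were 155 and 218, with the sex-linked covariate 24 and 41, and without cmGch1 KO replicates 2 and 3 there were 18 and 20. Library size alone gave 36 lower and 116 higher. Leaving out 1 library gave 30 to 97 lower and 45 to 116 higher, with moves of over 1.5 times without WT replicates 3 or 5 or cmGch1 KO replicates 1, 2 or 3. With library size alone the median of the 26 sodium transport genes was 0.11. Without a filter on low counts, and with that of edgeR, 1 listed gene outside the 26 passed, Slc9a3, named after its values were seen (log2 fold change 1.79 and 1.80, adjusted p = 0.0182 and 0.0236 by edgeR). This sodium-hydrogen exchanger gene had few counts, 6 to 90 in a library. Its means were 0.482 cpm for WT and 1.73 cpm for cmGch1 KO, and the libraries of the genotypes did not overlap. The replicate block gave 76 lower and 112 higher, and -0.36 for Scn4a and 0.18 for Atp1b1, without changing a member's call. The replicate numbers share no stated origin, and same-numbered libraries deviated together in 3 of 6 pairs (r from -0.13 to 0.68), with 2 of 6 cmGch1 KO libraries closest to their own number. With 6 libraries a group, the intervals leave changes of up to 0.75 on the log2 scale for Scn4a but of 0.18 for Fgf13.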
